A study of Mus musculus with 6 samples.

Results

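The cells described here are the Plac8 Chil3 monocytes of the tibialis anterior, a shin muscle, of wildtype mice 1 day after injury with cardiotoxin, a snake venom toxin that destroys muscle fibres. A cell was counted when it had at least 500 UMIs (unique molecular identifiers, 1 per captured transcript), at least 200 genes and at most 10% mitochondrial UMIs. It also needed at least 2 UMIs of Csf1r, Ccr2 and Ms4a6c together and at least 5 UMIs of Plac8, Chil3 and Vcan together. That last sum had to exceed the sum of Arg1, Pf4 and Spp1, and Cd209a, a dendritic cell gene, had to be at 0. The rule found 3253 cells among the 22217 kept cells of day 1 and the 64032 kept cells of all 6 libraries. Of these, 1293 came from the library collected at zeitgeber time 16 (ZT16, hours after lights on) and 1960 from the library collected at ZT4. The other libraries are a day 3 pair after the same injury and an uninjured day 0 pair, each at ZT16 and ZT4, all of the wildtype genotype. Mononucleated cells that took up no propidium iodide, a dye of dead cells, were collected by flow sorting and run on the 10x 3′ v3.1 chemistry. The age, sex and number of the animals and the hour of injury are not given in the sources used here, so collection hour, hours since injury and library cannot be told apart. The libraries held 72747703 to 132221721 UMIs in all, with 96690582 on day 1 at ZT16 and 72747703 at ZT4. Since each group was 1 library, the differences lack a replicate check and none was tested.

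Monocytes are made in the bone marrow and reach injured tissue through the blood. Classical monocytes carry much Ly6C and the chemokine receptor Ccr2, and in damaged muscle they follow neutrophils, take up debris and turn into macrophages. Nonclassical monocytes carry little Ly6C and more Cx3cr1, depend on the nuclear receptor Nr4a1 and patrol vessel walls. Ccr2 responds to the chemokines Ccl2, Ccl7 and, in mice, Ccl12.

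The members were chosen by their UMIs of Plac8, Chil3, Vcan, Csf1r, Ccr2, Ms4a6c, Arg1, Pf4, Spp1 and Cd209a, so the levels of these genes are a description only. Plac8 (chromosome 5, 100553725 to 100572245 on GRCm38), a small cysteine-rich protein gene, reached 995 CPM (UMIs of the gene per 1000000 UMIs of the class) at ZT16 and 1626 CPM at ZT4. Chil3 (chromosome 3, 106147554 to 106167564), which encodes the chitinase-like lectin Ym1 and has close copies that can share reads, reached 1187 CPM at ZT16 and 1280 CPM at ZT4. Vcan (chromosome 13, 89655312 to 89742509), the matrix proteoglycan versican, reached 755 CPM at ZT16 and 1386 CPM at ZT4. The summed UMIs of these 3 genes had a median of 30 per cell at ZT16 and 37 at ZT4. Cells at the limits were few. At ZT16, 18 members had a sum of exactly 5 and 26 cells with a sum of 4 were left out, and at ZT4 there were 22 and 21 such cells. A sum 1 above that of Arg1, Pf4 and Spp1 was found in 28 members at ZT16 and 13 at ZT4, and an equal sum left out 24 and 15 cells. Cells that failed the rule through Cd209a alone numbered 91 at ZT16 and 171 at ZT4.

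Ly6c2 (chromosome 15, 75108158 to 75111970), the classical monocyte surface antigen gene, was not part of the rule. A Ly6c2 UMI was found in 64.7% [62.0, 67.3] of members at ZT16 and 76.5% [74.5, 78.3] at ZT4 (exact 95% intervals, which cover counting error only). The share was 26.5% and 28.4% in macrophages and 14.4% and 14.9% in neutrophils, which can carry Ly6C themselves and so give no clean background. After thinning to 2000 UMIs a cell these shares became 32.1% and 47.3% in members and 12.2% and 12.4% in neutrophils, at ZT16 and ZT4 in turn. Ly6c2 was thus seen more often in members than in neutrophils in both libraries, while 457 members at ZT16 (35.3%) and 461 at ZT4 (23.5%) had no Ly6c2 UMI. Its near-identical neighbour Ly6c1, which can share its reads, was found in 1.24% and 0.459% of members. Ccr2, a gene of the rule, was found in 97.1% and 97.6% of members, 89.2% and 87.7% of macrophages and 0.995% and 0.717% of neutrophils. Members and macrophages had to reach 2 UMIs of a sum with Ccr2 and neutrophils to stay below it. The Ccr2 shares are thus a description only. The members' median depth was 10981 UMIs at ZT16 and 8938.5 at ZT4, against 15031.5 and 11947.5 in macrophages and 2520 and 2388 in neutrophils. Macrophages here are cells of the same Csf1r, Ccr2 and Ms4a6c lineage with at least 5 UMIs of Arg1, Pf4 and Spp1 exceeding the monocyte sum, and neutrophils are cells outside that lineage with at least 5 UMIs of S100a8 and S100a9 and at least 2 of Csf3r, Cxcr2 and Retnlg.

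**Figure D1:**
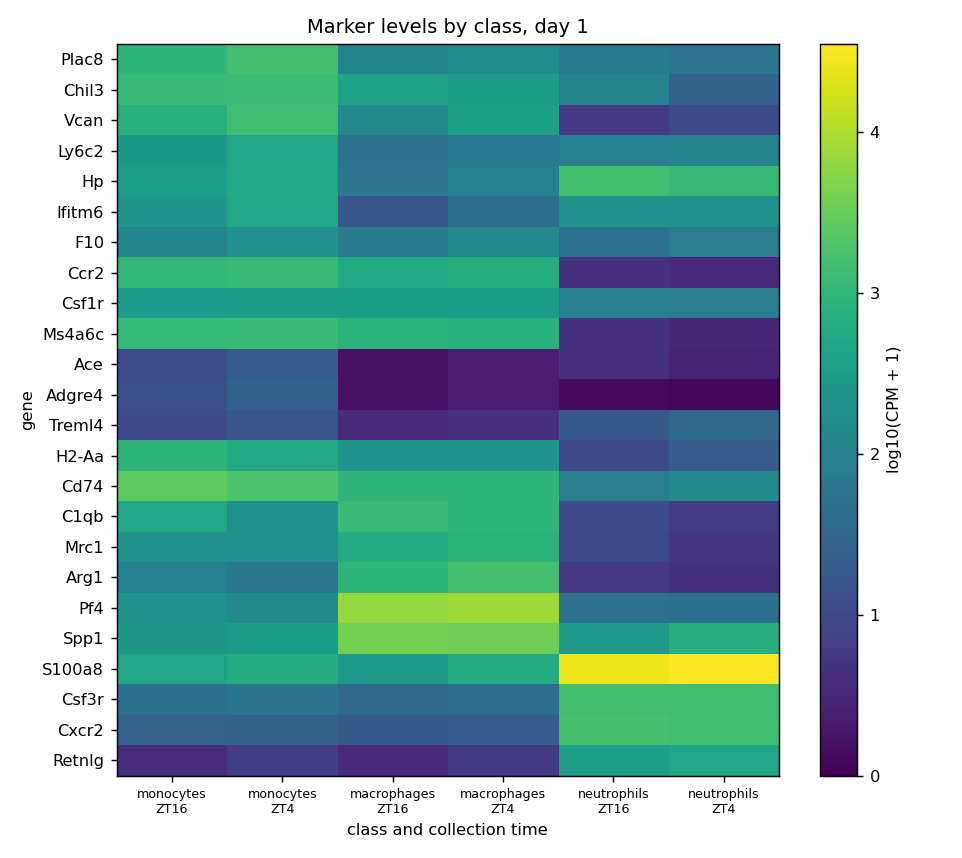
Colour gives log10(CPM + 1) of each gene (rows) in the summed UMIs of each class and collection time (columns), day 1. Plac8, Chil3, Vcan, Ly6c2, Ifitm6 and the nonclassical genes Ace and Adgre4 are brightest in the monocyte columns, Arg1, Pf4 and Spp1 in macrophages, and S100a8, Csf3r and Cxcr2 in neutrophils. Plac8, Chil3, Vcan, Arg1, Pf4, Spp1 and the lineage and neutrophil genes chose the classes.

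The monocytes were a smaller part of the ZT16 library than of the ZT4 library. They made up 11.5% [10.9, 12.1] of 11233 kept cells at ZT16 and 17.8% [17.1, 18.6] of 10984 at ZT4, a log2 ratio of -0.63 [-0.73, -0.53]. Among cells of the Csf1r, Ccr2 and Ms4a6c lineage the shares were 23.4% of 5526 at ZT16 and 37.7% of 5194 at ZT4, a log2 ratio of -0.69 [-0.79, -0.59]. Macrophages of the same lineage were a larger part at ZT16 and made up 30.8% of kept cells at ZT16 and 22.9% at ZT4 (log2 0.43 [0.35, 0.50]). Neutrophils made up 31.3% and 34.3% (log2 -0.13 [-0.20, -0.06]) and Cd209a cells 1.80% and 2.25%. Lineage cells with fewer than 5 UMIs of Plac8, Chil3 and Vcan numbered 2070 at ZT16 and 1583 at ZT4, and those with at least 5 but no more than of Arg1, Pf4 and Spp1 numbered 1961 and 1404. The rule counts raw UMIs and the ZT16 members were deeper. The macrophage class counts raw UMIs as well and was deeper at ZT16, at a median of 15031.5 against 11947.5 UMIs. No thinned share is given for macrophages. Thinned to 2000 UMIs before the rule, the monocyte shares were 7.11% and 15.02% (log2 -1.08). These are shares of the kept cells with at least 2000 UMIs, since shallower cells were left out. With Chil3 out of the sum, and no thinning, the shares of all kept cells were 8.93% and 16.6% (log2 -0.90).

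On the other days the same rule found 13 cells (0.105%) at ZT16 and 33 cells (0.281%) at ZT4 in uninjured muscle, and 1387 cells (17.0%) at ZT16 and 1205 cells (12.7%) at ZT4 on day 3. The day 3 log2 ratio was 0.42 [0.31, 0.53], opposite in sign to day 1. This difference between the days was not tested.

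**Figure D2:**
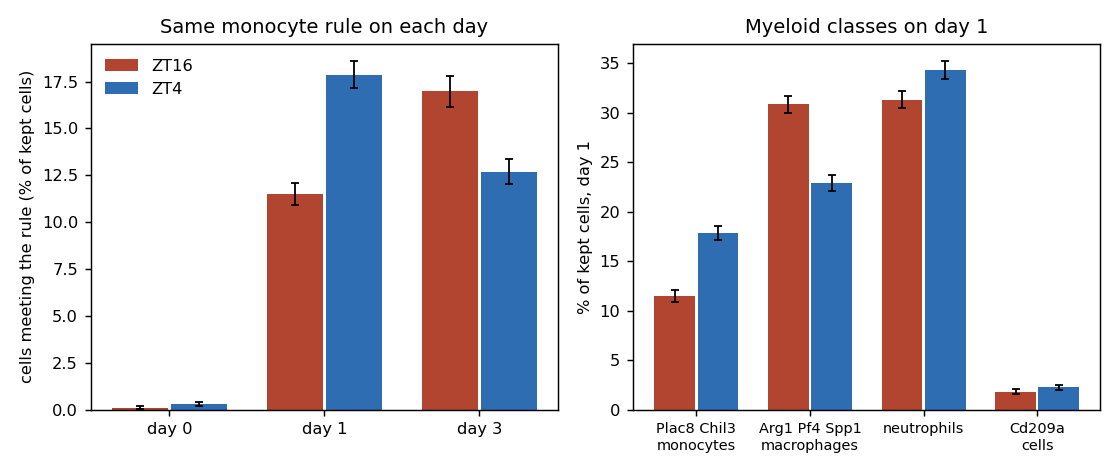
Left, percent of kept cells that met the monocyte rule on days 0, 1 and 3, at ZT16 and ZT4. Right, percent of day 1 kept cells in each myeloid class. Bars are 1 library each and error bars are exact 95% counting intervals. The day 1 monocyte bars stand at 11.5% and 17.8%, the macrophage bars at 30.8% and 22.9%.

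Within the monocytes, chemokines that act on Ccr2 were the genes that stood highest at ZT16 over ZT4 by the rule used to name genes, which ranks by the interval bound nearest 0. Ccl2 reached 3119 CPM at ZT16 and 1047 CPM at ZT4, a log2 ratio of 1.58 [1.55, 1.60]. Ccl7 reached 1456 and 427 CPM (log2 1.77 [1.73, 1.81]). Ccl12 reached 137 and 27.8 CPM (log2 2.30 [2.16, 2.45]). All 3 were higher at ZT16. In the macrophages of the same libraries the log2 ratios were 0.68 for Ccl2, 0.35 for Ccl7 and -0.01 for Ccl12, and in neutrophils 1.47, 0.51 and -0.12. Macrophages held 3738 CPM of Ccl2 at ZT16 and 2327 CPM at ZT4, 2927 and 2291 CPM of Ccl7 and 221 and 222 CPM of Ccl12. Each was more than in the monocytes in both libraries.

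The Ccl2 UMIs were spread over most monocytes. The median cell held 17 Ccl2 UMIs at ZT16 and 3 at ZT4, and the top 10% of cells held 44.0% and 53.6% of them. A Ccl2 UMI was found in 86.7% [84.7, 88.5] of members at ZT16 and 70.9% [68.8, 72.9] at ZT4, and in 75.6% and 50.4% of members thinned to 2000 UMIs. In macrophages the shares were higher, at 96.6% and 93.2%, or 87.2% and 81.2% after thinning, and in neutrophils 11.2% and 3.77%. Ccl7 was found in 62.4% and 31.1% of members, against 91.2% and 85.1% of macrophages and 7.96% and 3.19% of neutrophils. Ccl12 was found in 21.0% [18.8, 23.4] and 6.73% [5.67, 7.94] of members, against 42.1% and 39.1% of macrophages and 0.455% and 0.212% of neutrophils. The top 10% of members held 91.3% and 100% of its UMIs. At ZT4 fewer than 10% of members held a Ccl12 UMI, so the 100% was fixed in advance. The ZT16 share follows in part from the low level of Ccl12. Of 10685 genes that reached 30 UMIs over the pair of groups, 1043 (9.76%) were at least 1.5-fold higher at ZT16 and 839 (7.85%) at least 1.5-fold lower, with a median log2 ratio of 0.008. Against that background, 5 of 15 chemokines were at least 1.5-fold higher, these 3 with Ccl4 (415 and 208 CPM) and Ccl3 (154 and 85.0 CPM). Cxcl9 and Ccl8 were lower at under 5 CPM. The neutrophil attractants Cxcl2 (1991 and 2052 CPM, log2 -0.04) and Cxcl1 (51.0 and 50.1 CPM, log2 0.03) had values close to each other. The list's median was 0.28.

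The promoters of 4 genes that carry these differences are shown as the 250 bases before the start, from RefSeq on GRCm38.p6, 5′ to 3′ on the gene's strand. They were picked for a chemokine (Ccl12), the cystine exchanger Slc7a11, the heat shock gene Hspe1 and the marker Ly6c2, and 9 of 11 promoters looked up were in the table. Capitals mark TATAAA in Ccl12, TGATGCAA (the core of the amino acid response element) in Slc7a11 and 2 overlapping matches of the heat shock element (TTC, any 2 bases, GAA, any 2 bases, TTC) in Hspe1. Ly6c2 has no capitals because none of the 7 motifs searched matched.
Ccl12: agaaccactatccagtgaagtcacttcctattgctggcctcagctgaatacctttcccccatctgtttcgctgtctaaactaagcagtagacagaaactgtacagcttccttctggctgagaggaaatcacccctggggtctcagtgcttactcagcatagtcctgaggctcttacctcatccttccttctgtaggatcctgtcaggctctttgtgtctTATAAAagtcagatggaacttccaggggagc
Slc7a11: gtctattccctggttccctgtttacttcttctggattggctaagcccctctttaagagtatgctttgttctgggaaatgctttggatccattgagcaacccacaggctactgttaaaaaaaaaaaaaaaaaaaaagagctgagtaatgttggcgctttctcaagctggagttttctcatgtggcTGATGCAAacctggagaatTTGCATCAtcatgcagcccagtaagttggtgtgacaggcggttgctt
Hspe1: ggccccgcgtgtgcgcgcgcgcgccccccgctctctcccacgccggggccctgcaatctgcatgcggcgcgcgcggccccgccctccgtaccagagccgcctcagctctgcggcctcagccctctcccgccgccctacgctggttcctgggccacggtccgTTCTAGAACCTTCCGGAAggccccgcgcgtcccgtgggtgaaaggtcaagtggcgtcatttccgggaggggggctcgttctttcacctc
Ly6c2: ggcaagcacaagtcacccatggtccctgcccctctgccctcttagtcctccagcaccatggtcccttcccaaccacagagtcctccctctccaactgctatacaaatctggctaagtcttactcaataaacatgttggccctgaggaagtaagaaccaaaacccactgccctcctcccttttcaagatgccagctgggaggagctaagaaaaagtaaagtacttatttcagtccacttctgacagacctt
Ccl12 lies at chr11:82101595-82101844 on the plus strand, Slc7a11 at chr3:50443614-50443863 on the minus strand, Hspe1 at chr1:55087898-55088147 on the plus strand and Ly6c2 at chr15:75111972-75112221 on the minus strand. Matches were searched on both strands. With -1 the last base before the start, the Ccl12 match begins at -31, the Slc7a11 matches at -66 and -47 and the Hspe1 matches at -89 and -84. Among 27025 promoters of the same length, TATAAA was found in 12.97%, TGATGCAA in 0.818% and the heat shock element in 0.400%. The other motifs were AP-1 TGANTCA (6.87%), C/EBP TTGCNNCAA (1.78%), the kappaB site GGGA, any base, TTTCC (0.337%) and the E-box CACGTG (6.05%). A match describes letters in a window and is not evidence of binding.

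The other genes named as higher at ZT16 were led by the complement starter C1q. C1qb reached 513 CPM at ZT16 and 194 CPM at ZT4 (log2 1.40 [1.34, 1.46]), C1qa 235 and 85.9 CPM (1.45) and C1qc 156 and 54.6 CPM (1.52). In macrophages their log2 ratios were 0.31, 0.23 and 0.39, and in neutrophils, at under 11 CPM, 1.03, 2.11 and 1.44. C1qa was found in 23.6% and 9.39% of members, against 49.4% and 43.3% of macrophages and 1.71% and 0.425% of neutrophils. The remaining named genes were Tuba1b, an alpha-tubulin (210 and 85.9 CPM, 1.29), Tmem37 (44.1 and 16.3 CPM, 1.44), Mthfs, a folate enzyme (38.9 and 13.5 CPM, 1.52), Cbr2, a carbonyl reductase (27.7 and 10.1 CPM, 1.45), Smim26 (18.4 and 6.36 CPM, 1.53) and Trim47, a ubiquitin ligase (8.16 and 2.16 CPM, 1.91).

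The genes named as lower at ZT16 included Slc7a11, which imports cystine for glutathione, at 36.8 CPM at ZT16 and 113 CPM at ZT4 (log2 -1.62 [-1.76, -1.48]). It was found in 15.3% and 32.6% of members and, as a gene neutrophils also carry, in 40.0% and 58.4% of neutrophils. Its log2 ratio was -1.85 in macrophages and -1.09 in neutrophils, so this gene was lower at ZT16 in all 3 classes. Mgst1, a microsomal glutathione transferase, stood at 72.6 and 190 CPM (-1.39), and complement C3 at 91.5 and 235 CPM (-1.36). Mgst1 was far less different in macrophages (-0.26) and neutrophils (-0.03). The rest were Rnf149, a ubiquitin ligase (58.9 and 157 CPM, -1.42), the immune receptor Cd244a (23.5 and 70.2 CPM, -1.58), the Smad anchor Zfyve9 (10.9 and 37.3 CPM, -1.77), coagulation factor F5 (8.83 and 28.1 CPM, -1.67), Arap2 (8.43 and 33.6 CPM, -1.99), Tmem71 (3.48 and 12.4 CPM, -1.83), Arhgef37 (2.68 CPM at ZT16 and 9.63 CPM, -1.83) and Ramp3, a calcitonin-family receptor partner (1.40 and 8.30 CPM, -2.53). All 11 described were also below 0 in macrophages, by 0.21 to 1.85 on the log2 scale.

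**Figure D3:**
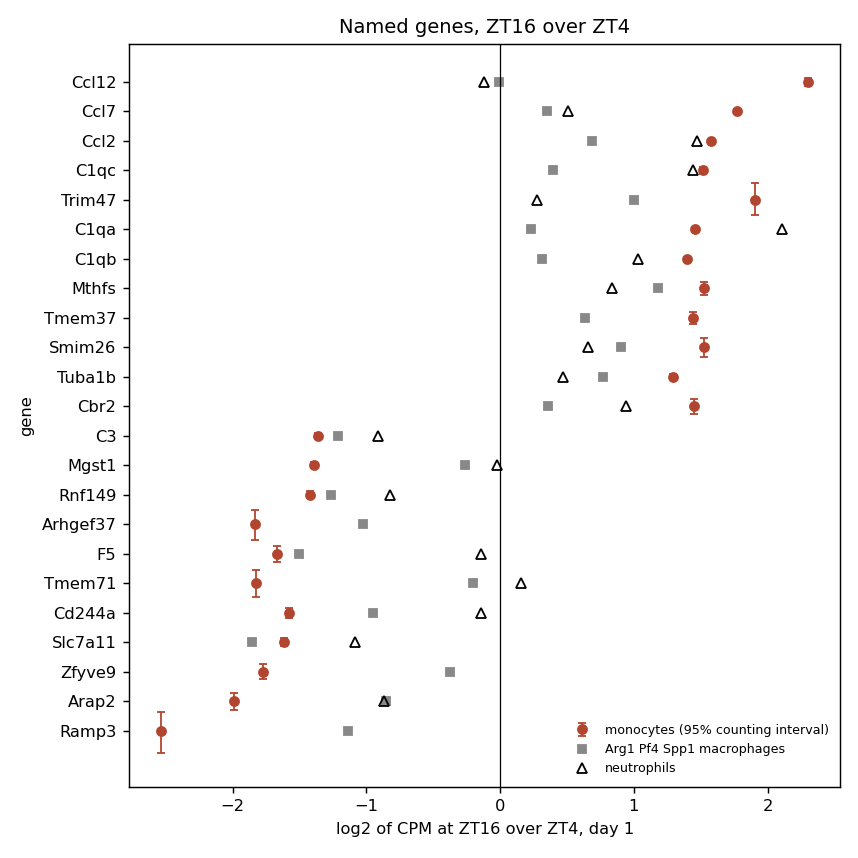
Log2 of CPM at ZT16 over ZT4 on day 1 for 23 named genes (rows), in monocytes (red circles with 95% counting intervals), macrophages (grey squares) and neutrophils (triangles, where there were at least 30 UMIs). Ccl12 stands at 2.30 in monocytes and at -0.01 in macrophages, whereas Slc7a11 is below 0 in all 3 classes.

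Several genes that mark classical monocytes were lower at ZT16. Of 18 measured, 8 were at least 1.5-fold lower and 1 higher, where 7.85% of all genes were lower and 9.76% higher, with a list median of -0.45 beside 0.008 over all genes. Ly6c2 stood at 268 CPM at ZT16 and 508 CPM at ZT4 (log2 -0.92 [-0.97, -0.86]). Ifitm6, an interferon-induced transmembrane family member, stood at 231 and 521 CPM (-1.17 [-1.23, -1.12]). Haptoglobin (Hp) stood at 332 and 571 CPM (-0.78), coagulation factor F10 at 117 and 200 CPM (-0.77), Msrb1 at 404 and 654 CPM (-0.69) and thrombospondin 1 (Thbs1) at 1936 and 3007 CPM (-0.64). The exception was Cebpb, a myeloid transcription factor, at 2547 and 1484 CPM (0.78). Lyz2, lysozyme (12717 and 14982 CPM, -0.24), and S100a4 (4651 and 4465 CPM, 0.06) differed little. In macrophages the list's median was -0.31 and in neutrophils -0.02. Plac8 and Vcan had log2 values of -0.71 and -0.88, whereas Chil3 had close values at both times. These genes chose the cells, so their levels are a description only and add nothing to the list result. Of 12 nonclassical genes, 7 were lower and 4 higher (median -0.59): Ace, an angiotensin-converting enzyme, stood at 11.4 and 19.8 CPM, the adhesion receptor Adgre4 at 11.6 and 24.7 CPM, and Fabp4, a fatty acid carrier, at 25.4 and 7.30 CPM.

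Genes of maturing macrophages ran the other way. Of 19 measured, 8 were at least 1.5-fold higher at ZT16 and 1 lower, beside 9.76% and 7.85% of all genes, with a median of 0.47 in monocytes, 0.11 in macrophages and 0.25 in neutrophils. Beside C1q they were Apoe, a lipid carrier (2210 and 1320 CPM, 0.74), Trem2, a lipid receptor (151 and 94.7 CPM, 0.67), Cd63 (154 and 101 CPM), Lpl, lipoprotein lipase (84.7 and 47.7 CPM) and Mertk, a receptor for dying cells (12.98 and 7.52 CPM). The exception was Saa3 (16.3 and 26.0 CPM). The mannose receptor Mrc1 (214 and 201 CPM, 0.09) and haem oxygenase Hmox1 (287 and 263 CPM, 0.13) were close to 0.

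Class II antigen presentation genes were higher at ZT16 in monocytes and nearly level in macrophages. H2-Aa stood at 903 and 569 CPM (log2 0.67 [0.63, 0.70]), H2-Ab1 at 912 and 604 CPM (0.59) and H2-Eb1 at 577 and 356 CPM (0.70), and these were the 3 of 14 listed genes past 1.5-fold. Over all genes 9.76% were at least 1.5-fold higher and 7.85% lower. In macrophages H2-Aa stood at -0.01 and H2-Eb1 at -0.05 on the same log2 scale. Cd74, the invariant chain, stood at 2592 and 1814 CPM (0.51). The list median was 0.30 in monocytes and -0.03 in macrophages, and the costimulator Cd86 (90.9 and 134 CPM, -0.56) went the other way. The differences between classes were not tested.

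Of 12 heat shock genes, 6 were at least 1.5-fold higher at ZT16 and 0 lower, beside 9.76% and 7.85% of all genes, with a median of 0.61 in monocytes (0.36 after thinning to 2000 UMIs), 0.37 in macrophages and 0.07 in neutrophils. Hspa8, the constitutive chaperone, stood at 2860 and 1818 CPM (0.65 [0.63, 0.67]) and Hspe1, the mitochondrial co-chaperonin, at 313 and 153 CPM (1.03 [0.96, 1.10]). Hsph1 (37.1 and 15.5 CPM, 1.25), Hspb1 (13.1 and 3.82 CPM, 1.77) and the near-identical pair Hspa1a and Hspa1b (0.94 and 0.78), which can share reads, completed the 6. Immediate early genes had a median of 0.26, with 5 of 22 higher, beside the same 9.76%, among them the messenger decay factor Zfp36 (482 and 266 CPM, 0.86), Klf2 (183 and 108 CPM, 0.76) and Nr4a1 (419 and 267 CPM, 0.65). Among recruitment genes the chemokine receptor Cxcr4 (149 and 89.0 CPM, 0.74) and the complement receptor C5ar1 (377 and 245 CPM, 0.62) were higher, and the integrins Itgb7 (71.0 and 122 CPM, -0.78) and Itgal (63.9 and 109 CPM, -0.77) lower.

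Inflammatory cytokines had a median of 0.00, and 0 of 18 measured were 1.5-fold higher and 2 lower. Over all genes 9.76% were higher and 7.85% lower, the background for every count in this paragraph. Il1b stood at 2623 and 2682 CPM (-0.03), Tnf at 53.3 and 44.9 CPM (0.25), the IL-1 antagonist Il1rn at 107 and 161 CPM (-0.60) and Vegfa at 31.2 and 55.6 CPM (-0.83). Hif1a, an oxygen-regulated transcription factor gene, was lower at ZT16 (372 and 606 CPM, -0.70 in monocytes, -1.03 in macrophages and -1.13 in neutrophils), as was the lactate exporter Slc16a3 (108 and 177 CPM, -0.71). Of 23 glycolysis and hypoxia genes, 20 stayed within 1.5-fold, with 1 higher and 2 lower, near the shares of all genes. None of 23 oxidative phosphorylation genes passed 1.5-fold (median 0.06). Matrix and clotting genes had 6 of 17 lower and 3 higher (median -0.29), with Serpinb2, an inhibitor of plasminogen activation, at 9.97 and 22.8 CPM (-1.19). Pattern receptors had 2 of 17 lower, Trem1 (62.3 and 117 CPM, -0.91) and Clec4d (385 and 580 CPM, -0.59), and 1, Cd36, higher. These counts were also near the shares of all genes.

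Interferon response genes had a median of -0.41, with 5 of 21 measured lower at ZT16 and 0 higher, beside 7.85% and 9.76% of all genes. The antiviral enzyme Rsad2 led the 5 (22.3 and 51.6 CPM, -1.21). Isg15, a ubiquitin-like modifier, stood at 222 and 251 CPM (-0.18). In members with no Arg1, Pf4 or Spp1 UMI the list's median was 0.23, so its sign was not the same throughout the population. Core clock genes were low. Clock stood at 23.7 and 24.7 CPM (-0.06), Per1 at 37.1 and 36.6 CPM (0.02) and Cry1 at 16.8 and 14.5 CPM (0.21). The exceptions past 1.5-fold were Nr1d2 (2.61 and 6.47 CPM, -1.30 [-1.87, -0.78]), Rora (1.34 and 2.32 CPM, -0.78 [-1.64, 0.00]) and Dbp (3.61 and 1.99 CPM, 0.85 [0.22, 1.51]). The medians for clock activators, repressors and outputs were -0.06, 0.11 and 0.07 on day 1 and 0.23, 0.65 and 0.59 under the same rule on day 3. Arntl and Nr1d1 were at under 4 CPM on day 1, which limits what these counts can show.

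**Figure D4:**
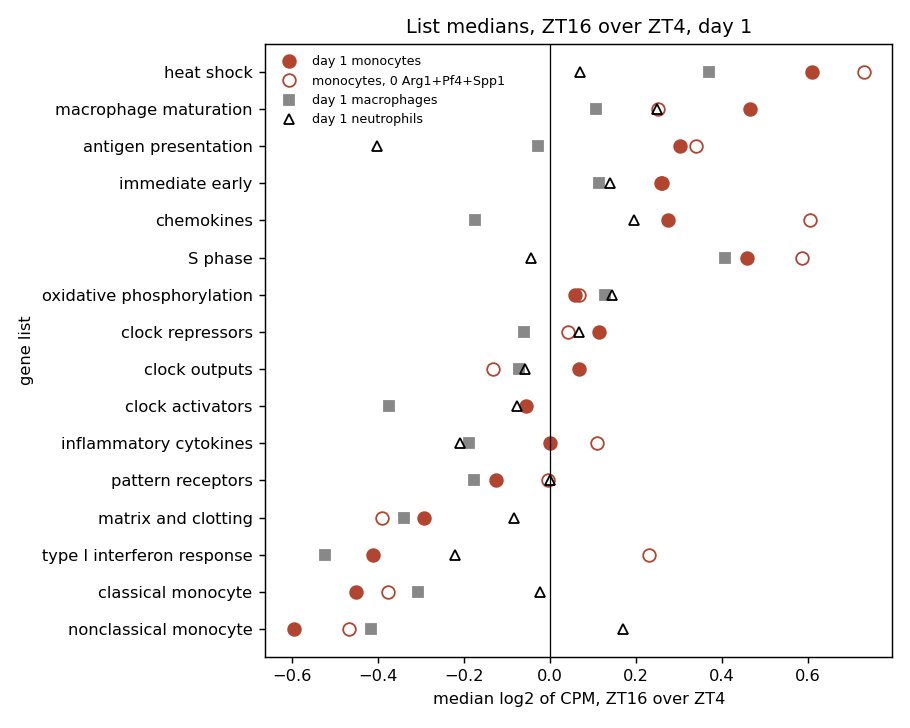
Median log2 of CPM at ZT16 over ZT4 for 16 gene lists (rows) on day 1, in monocytes (filled circles), monocytes with no Arg1, Pf4 or Spp1 UMI (open circles), macrophages (squares) and neutrophils (triangles). Heat shock stands at 0.61 and nonclassical monocyte at -0.59 in monocytes, and the interferon list lies at -0.41 in all monocytes and at 0.23 in the open circle.

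The monocytes varied among themselves along the macrophage genes of the rule. No UMI of Arg1, Pf4 or Spp1 was found in 388 members at ZT16 (30.01%) and 919 at ZT4 (46.9%), 1 to 2 in 334 (25.8%) and 419 (21.4%), and 3 or more in 571 (44.2%) and 622 (31.7%). Median depth followed these groups, at 9810, 10501 and 12201 UMIs at ZT16 and 8414, 9006 and 9772.5 at ZT4. From the lowest to the highest group, Ccl2 stood at 1851, 2947 and 3888 CPM at ZT16 and at 581, 876 and 1724 CPM at ZT4. Ccl2 was thus higher in members with more macrophage UMIs and higher at ZT16 in every group. Ccl12 stood at 45.4, 85.6 and 212 CPM at ZT16 and at 6.65, 14.9 and 61.7 CPM at ZT4. C1qb stood at 350, 441 and 636 CPM at ZT16 and at 68.5, 258 and 310 CPM at ZT4. In members with no such UMI the log2 ratios of ZT16 over ZT4 were 1.67 for Ccl2, 2.25 for Ccl7, 2.76 for Ccl12 and 2.35 for C1qb, each above its value over all members. The group was cut on genes of the rule, so this is a description. Cbr2 went the other way (1.02, against 1.45 over all members), as did the maturation list (median 0.25, against 0.47).

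The classical genes Ly6c2 and Ifitm6 were lower in the groups with more macrophage UMIs. Ly6c2 stood at 334, 259 and 238 CPM at ZT16 and at 564, 482 and 454 CPM at ZT4, and Ifitm6 at 386, 252 and 137 CPM and at 656, 508 and 361 CPM. H2-Aa was highest in the middle group, at 1253, 1506 and 416 CPM at ZT16 and 701, 840 and 242 CPM at ZT4. The classical list's median for ZT16 over ZT4 was -0.38 in members with no Arg1, Pf4 or Spp1 UMI. Across cells thinned to 3000 UMIs (1286 at ZT16 and 1928 at ZT4), the highest Spearman values with Ly6c2 were for Ifitm3 (0.25 and 0.27) and Hp (0.24 and 0.28), and the lowest for Cd74 (-0.23 and -0.20). Cells of 1 library share their preparation and the values are weak, so they are given as a description only.

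**Figure D5:**
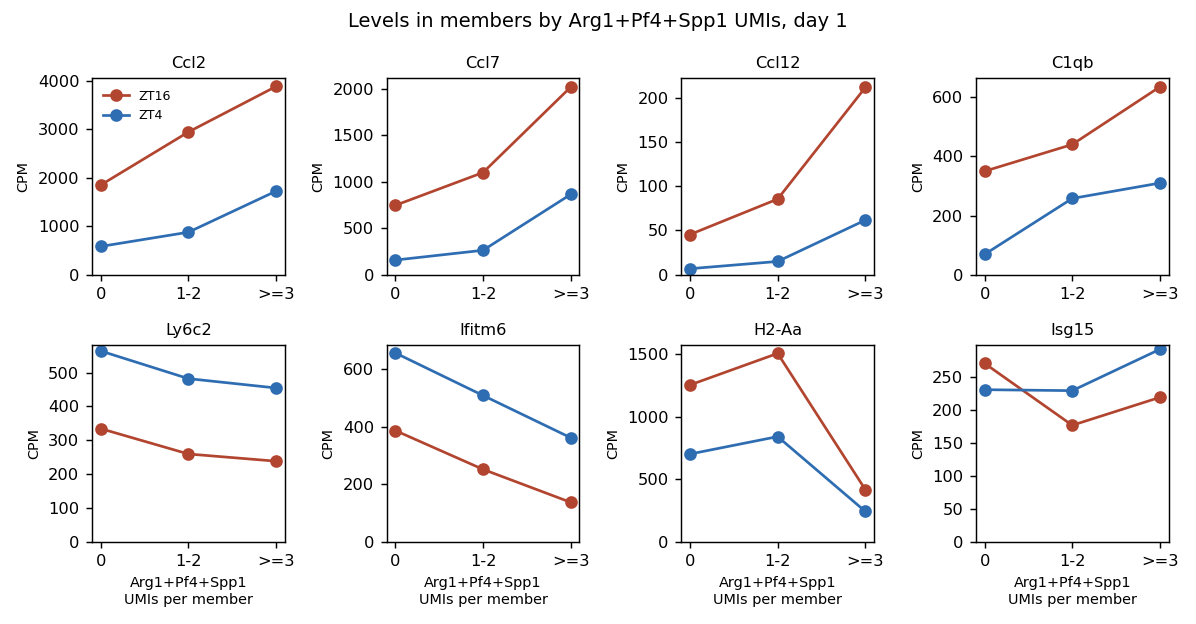
CPM of 8 genes (panels) in members with 0, 1 to 2 and at least 3 UMIs of Arg1, Pf4 and Spp1, at ZT16 (red) and ZT4 (blue), 1 library each. Ccl2, Ccl7, Ccl12 and C1qb are higher to the right and at ZT16, Ly6c2 and Ifitm6 are lower to the right and at ZT16, and the Isg15 lines cross.

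A minority of members carried nonclassical genes. At least 2 UMIs of Ace, Adgre4 and Treml4 were found in 104 members at ZT16 (8.04%) and 219 at ZT4 (11.2%), against 0.895% and 1.23% of macrophages and 0.597% and 1.01% of neutrophils, a threshold chosen after the values were seen. Ear2 and Cx3cr1, which did not choose them, stood at 167 and 149 CPM and at 118 and 141 CPM in these cells, against 21.0 and 22.2 CPM and 48.3 and 42.3 CPM in the other members. Ly6c2 stood at 160 and 363 CPM in them, against 277 and 524 CPM in the others. Ccl2 was lower in them as well, at 1565 and 365 CPM against 3243 and 1125 CPM. The cells of the rule thus differed in which monocyte subset's genes they carried. Of the genes summed to choose members, Plac8 was higher in the nonclassical cells, at 1793 and 2903 CPM against 931 and 1479 CPM. Vcan was lower, at 556 and 805 CPM against 771 and 1452 CPM, and Chil3 close, at 1087 and 1282 CPM against 1195 and 1280 CPM. The rule used their sum, so these levels are a description only. At least 2 UMIs of Flt3, Clec9a, Xcr1 and Siglech, genes of dendritic cells and their precursors, were found in 31 members at ZT16 (2.40%) and 32 at ZT4 (1.63%).

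Proliferation genes were sparse. At least 3 UMIs of the G2M genes were found in 69 members at ZT16 (5.34%) and 82 at ZT4 (4.18%). The shares were 4.79% and 3.34% in macrophages and 0.626% and 0.505% in neutrophils. A raw threshold takes no account of depth, which was highest in macrophages and lowest in neutrophils. Summed, the G2M genes stood at 105 and 86.1 CPM in members, 53.8 and 53.1 CPM in macrophages and 104 and 110 CPM in neutrophils. Top2a stood at 13.1 and 7.80 CPM (0.75 [0.43, 1.07]) and the S phase gene Pcna at 90.3 and 62.4 CPM (0.53). The S phase list had 7 of 19 higher (median 0.46) and the G2M list 8 of 17 (median 0.52), beside 9.76% of all genes. The G2M median was -0.09 without the cells of highest doublet score, and the S phase median was 0.00 after thinning to 2000 UMIs.

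Set against macrophages, the monocytes were parted by the rule itself, so this comparison is a description. At ZT16, 9.97% of 11726 genes were at least 1.5-fold higher in monocytes and 16.2% lower, and at ZT4 10.7% and 22.8% of 11391. Adgre4 stood at 11.6 CPM in monocytes and 0.631 CPM in macrophages at ZT16, and at 24.7 and 1.29 CPM at ZT4. Ace stood at 11.4 and 0.594 CPM at ZT16 and at 19.8 and 1.32 CPM at ZT4, and Ear2, an eosinophil-type ribonuclease, at 31.8 and 2.47 CPM and at 35.3 and 1.87 CPM. Ifitm6 was the most abundant of the named genes, at 231 and 15.9 CPM at ZT16 and 521 and 42.6 CPM at ZT4. Dpp4, Hist1h1b, Itgal, Flt3, Rnase6, Gpr171 and Ciita, the class II transactivator, were 7 others higher in monocytes in both libraries, with log2 ratios of 2.77 to 5.21. Cd36, a scavenger receptor, was lower in monocytes (45.0 and 287 CPM at ZT16, 29.6 and 267 CPM at ZT4), as was Pdpn, podoplanin (18.9 and 148 CPM, 27.5 and 249.98 CPM). The other 10 lower in monocytes were AU022793, Slc27a1, Jag1, Enpp1, Gpt2, Tns1, Slc6a8, Tmem171, Fblim1 and Ctla2b, among them a fatty acid transporter (Slc27a1), a Notch ligand (Jag1) and a creatine transporter (Slc6a8). Of the lists, interferon response had 14 of 21 genes higher in monocytes at ZT16 and 11 at ZT4, and antigen presentation 8 and 9 of 14. Dendritic cell genes had 6 of 11 higher and 5 lower at ZT16 (median 2.79), and 6 of 10 higher and 3 lower at ZT4 (median 2.19). The rule left out dendritic cells by Cd209a alone, and the part of any others in these values was not tested.

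The cells that met the same rule on day 3 differed widely from those of day 1. At least 1.5-fold higher on day 3 were 33.1% of 11524 genes (ZT16 over ZT16), 35.1% of 11640 (day 3 ZT16 over day 1 ZT4), 30.5% of 11293 (day 3 ZT4 over day 1 ZT16) and 32.5% of 11397 (ZT4 over ZT4), and lower were 13.5%, 14.2%, 15.9% and 17%. These comparisons share libraries. Interferon genes were higher in 21 of 22 in each pair, with medians of 2.43 to 3.09, beside 0.11 to 0.20 over all genes. Ifit2 stood at 5.35 CPM at ZT16 and 8.69 at ZT4 on day 1, and at 349 and 256 CPM on day 3. Cxcl9, a lymphocyte attractant, stood at 0.134 and 1.88 CPM on day 1 and at 119 and 112 CPM on day 3, and the nuclease Dnase1l3 at 0.201 and 0.055 CPM and at 21.2 and 13.9 CPM. Ifi44, Lrrc17, Gpr34, Serpina3g and Gbp6 were the other named genes higher on day 3. G2M genes had medians of 2.17 to 3.25 and antigen presentation genes 1.77 to 1.93. Markers of other cells moved as well. Over the 4 pairs, the median was 2.46 to 3.01 for dendritic, 2.85 to 6.12 for lymphocyte, 2.34 to 4.67 for stromal and 5.50 to 7.17 for erythroid genes, and -4.42 to -4.11 for neutrophil genes. Their part in the day 3 differences was not tested.

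Lower on day 3 were matrix and clotting genes, with medians of -2.57 to -1.67, and classical genes, with medians of -1.50 to -1.01. Dmkn, dermokine, stood at 234 CPM at ZT16 and 374 CPM at ZT4 on day 1, and at 2.31 and 6.06 CPM on day 3. Cxcl3, a neutrophil attractant, stood at 58.5 and 64.9 CPM on day 1 and at 1.86 and 0.691 CPM on day 3. Saa3, Gpat3, Lrg1, Flrt3, Nt5e and Tarm1 were the other 6. Ly6c2 was an exception to its list, at 268 and 508 CPM on day 1 and 901 and 748 CPM on day 3. Ccl2 stood at 3119 and 1047 CPM on day 1 and 591 and 434 CPM on day 3, with a day 3 log2 ratio of ZT16 over ZT4 of 0.44 [0.40, 0.49], and Slc7a11 at 36.8 and 113 CPM and at 4.23 and 8.21 CPM.

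Markers of other cells differed widely in level in the monocytes. The list counts here stand beside 9.76% of all genes higher at ZT16 and 7.85% lower. Resident macrophage genes summed to 846 CPM at ZT16 and 752 CPM at ZT4, with 4 of 8 higher and 2 lower at ZT16 (median 0.55). Lyve1, one of them, was at 0 UMIs in both libraries (0 of 1293 and 0 of 1960 cells, upper exact bounds 0.285% and 0.188%), Cd3e was found in 0 and 2 cells, and summed erythroid genes stood at 1.67 and 0.830 CPM. At least 2 UMIs of Csf3r, Cxcr2 and Retnlg were found in 130 members at ZT16 (10.1%) and 216 at ZT4 (11.0%), beside 9.24% and 10.1% of macrophages. Neutrophil genes summed to 1293 and 1569 CPM, and a UMI of S100a8 was found in 31.0% and 31.3% of members and one of Csf3r in 25.9% and 28.6%, against 34.4% and 35.2% and 24.6% and 24.2% of macrophages. The neutrophil list had 4 of 13 lower at ZT16 and 0 higher, with a median of -0.33 (0.14 without the highest doublet scores). Camp and Ngp were at 0 in both. Stromal genes had 7 of 10 higher and 1 lower at ZT16, with a median of 1.13 that became -1.07 without the highest doublet scores. They summed to 260 and 174 CPM, mostly Gsn, and Dcn (29.2 and 4.48 CPM) came from 11 and 10 cells. At ZT16, 132 of its 436 UMIs were in 1 cell. Muscle genes summed to 411 and 220 CPM with 8 of 10 higher (median 0.89, but -0.40 after thinning to 2000 UMIs). Endothelial genes summed to 22.9 and 14.8 CPM and lymphocyte genes to 44.0 and 43.7 CPM. The part of these other cells' RNA in the ZT16 to ZT4 differences was not tested. Leaving out members that held a stromal UMI removed 29 at ZT16 and 20 at ZT4. Of 10503 genes then measured, 1011 (9.63%) were higher at ZT16 and 852 (8.11%) lower, and no named gene differed in sign. The 2 day 1 libraries shared 48 barcodes, of which 0 were members in both.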

How the data were processed

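Cells of the tibialis anterior were profiled by 10x 3′ single-cell RNA sequencing in 6 libraries, 1 for each of days 0, 1 and 3 at ZT16 and ZT4. The authors deposited raw UMI counts per gene and cell as filtered matrices of 32285 genes. Cell Ranger 6.1.2 is named per the file headers, and Cell Ranger 1.0.0 and the mm10 build per the submitters' processing notes. The members and gene lists were chosen with earlier results of these data known. UMI counts were summed over the cells of a class in a library and given per 1000000 UMIs (CPM). Log2 ratios had 0.5 UMIs added, genes reaching 30 UMIs over the pair of groups were used, and 1.5-fold was the size counted as different. Ratios have exact conditional binomial intervals and shares exact Clopper-Pearson intervals (95%), which cover counting error only. With 1 library a group there was no test. Named genes had at least 100 UMIs, were outside the rule and not mitochondrial, ribosomal or predicted, had at least 10% of the level in other kept cells, and ranked by the interval bound nearest 0 (12 each way; against macrophages and between days, by the smallest log2 over the library pairs, 12 and 8 each way). A gene met by these rules is not reported here. From the lists described, some of the most abundant members and some of those past 1.5-fold were given. Several lists were not described, among them cold-inducible and splicing genes (median -0.42 for ZT16 over ZT4 in monocytes). Lipid, glucocorticoid response, iron and haem, and arginine and polyamine genes were not described either. Doublets stayed in, and leaving out the highest scores was an alternative. Of 473 list genes, 471 were found. The ratio and its interval were tested on simulated independent counts, as the interval assumes. Real UMIs can lie in few cells, so this checks the calculation only. Python 3.11.15, numpy 2.4.6, scipy 1.17.1, pandas 2.3.3, scanpy 1.11.5 and matplotlib 3.10.9 were used.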

Additional observations from a re-analysis of the deposited data

Results flagged for a closer look

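Some values had opposite signs for ZT16 over ZT4 in different days or cell classes, each from 1 library a group, and in every case the difference was not tested. The log2 ratio of the monocyte share of kept cells was -0.63 on day 1 and 0.42 on day 3. In cells of the same rule, the cholesterol exporter Abca1 stood at -1.06 on day 1 and 0.87 on day 3, Ace at -0.79 and 0.69, Oasl1 at -0.61 and 0.61, and Lpl at 0.83 and -1.05. Ube2c, a mitotic ubiquitin enzyme, stood at 0.60 in day 1 monocytes and -0.69 in macrophages. Against neutrophils, Dut stood at 0.98 in monocytes and -0.67 in neutrophils, Top2a at 0.75 and -0.74, the urokinase gene Plau at 0.86 and -0.84, and Pi16 at -0.97 and 0.59.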

How the results depend on the processing

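The day 1 monocyte share was lower at ZT16 under every setting tried. Its log2 ratio among kept cells was -0.90 with Chil3 left out and -1.28 with no Arg1, Pf4 or Spp1 UMI allowed (3.45% and 8.37%). After thinning to 2000 UMIs, which left out shallower cells, the ratio was -1.08. Among lineage cells the ratio was -1.03 after thinning and -0.95 with Chil3 left out. After thinning, 681 of 7242 genes (9.40%) were at least 1.5-fold higher and 709 (9.79%) lower. Without thinning these were 1043 (9.76%) and 839 (7.85%) of 10685 genes. After thinning the lower side was thus the larger. Of 8841 genes with at least 100 UMIs, 628 (7.10%) were higher and 522 (5.90%) lower. Of 16845 genes with at least 1 UMI, 3186 (18.9%) were higher and 3066 (18.2%) lower. List medians past 0.3 numbered 9 of 25 after thinning and 14 of 31 without it, and G2M, stroma and endothelial, among the 14, had no median after thinning. Of medians past 0.3, those that turned sign were interferon response (0.23 with no Arg1, Pf4 or Spp1 UMI), muscle (-0.40 after thinning) and, without the highest doublet scores, G2M (-0.089), neutrophil (0.14), stroma (-1.07) and endothelial (-0.084). Smaller medians also turned sign, among them clock outputs (-0.13 with no Arg1, Pf4 or Spp1 UMI) and clock activators (0.003 without the highest doublet scores), as did inflammatory cytokines and glycolysis near 0. The cause was not tested. None of 35 named genes followed turned sign in the 16 settings, 13 planned and 3 chosen after seeing the data, but the values of 23 of the 35 moved beyond their counting interval after thinning, and of 23 with no Arg1, Pf4 or Spp1 UMI. The automatic doublet threshold called 339 of 11493 barcodes at ZT16 and 0 of 11235 at ZT4 and had not worked, so 0.8% per 1000 barcodes was left out instead. No paired analysis was possible because each group was 1 library with no replicate number.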
